A study of Mus musculus with 10 samples.

Results

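Promoter windows that were highly methylated in the lungs of saline mice are described here in saline, ovalbumin (OVA)-induced and DSE-treated mice. A window is 1000 bp of the genome, and windows follow each other in steps of 500 bp. The 6635 members were chosen by 3 conditions: they overlap the 1000 bp on either side of a RefSeq transcription start site on chromosomes 1 to 19 of GRCm38, they hold at least 20 CpG calls in all 10 mice, and at least 75% of the pooled calls of the saline mice were methylated. They are 6635 of the 81307 promoter windows with that depth, and of 446336 windows in all. Joined where they overlap or touch, they form 4366 regions near 4411 of the 18523 genes with an analysed promoter window.

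All mice were female BALB/c mice, bought at 8 weeks of age, and DNA was taken from the lung. The 3 saline mice received saline only. The 3 OVA-induced mice (the OVA group), a model of allergic asthma, were sensitized with 50 µg of OVA in alum on separate days and challenged through the nose with 25 µg of OVA for 4 days. The 4 DSE-treated mice (the DSE group) received the same OVA and, by mouth for 7 days, 200 mg/kg of DSE, an ethanol extract of Descurainia sophia seeds; the labels call them Herb. The DSE began after sensitization and before the first challenge. The study's methods also name an oral vehicle and do not say plainly whether the OVA group received it. The labels were matched to DSE because the study's methods name no other herb. OVA-induced and DSE-treated mice together are called the 7 OVA-exposed mice. Because whole lung was used, a change in the share of a cell type and a change of methylation inside cells cannot be told apart.

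In mammals a methyl group is added to the cytosine of CpG dinucleotides. Most CpG-rich start sites stay unmethylated whether or not their gene is active, while dense methylation over a start site is known to go with stable silencing, as at germline genes in body tissues. The edges of unmethylated islands, called shores, and CpG-poor promoters differ between cell types, and blood cell genes tend to be unmethylated in the blood cells that use them and methylated elsewhere. The members were selected on methylation alone. Gene expression was not analysed here, so whether a member's gene is silent was not measured.

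Members were poor in CpGs and mostly stood beside the start site rather than on it. The median member held 13 CpGs in its sequence, against 15 in the 22534 promoter windows of 20% to under 75% saline methylation and 43 in the 52138 windows under 20%. A start site lay inside 24.2% of the members, 25.4% of the windows of 20% to under 75% and 53.1% of the windows under 20%. The median distance from the window's midpoint to the nearest start site was 952, 854 and 468 bp in the same order. In position the members were thus close to the windows of 20% to under 75%. Repeats, taken as the bases that RefSeq masks, made up a mean of 20.8%, 17.4% and 12.8% of these windows. They made up 23.5% of the 113920 windows outside promoters that also reached 75% in saline. The nearest transcript was protein-coding for 77.0% of the members, 85.0% of the windows of 20% to under 75% and 93.0% of those under 20%. It was a microRNA for 5.53%, 2.44% and 0.737%. For microRNA and small nucleolar RNA genes the start site is the 5′ end of the annotated RNA. That end need not be where transcription begins, so their windows need not be promoters.

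Most start sites with a member were not methylated throughout. Of 4702 start sites that had a member and at least 2 analysed windows, 2927 (62.3%) also had a window under 20% in saline, 1053 (22.4%) had a lowest window of 20% to under 75%, and 722 (15.4%) had only members. Counting only windows within 500 bp of the start site, 660 of 2169 sites (30.4%) had only members. For 753 genes every analysed promoter window was a member, and these are called closed genes below, for their methylation alone. Of these, 625 had at least 2 analysed windows, and the others rest on a single window that need not cover the start site. The closed genes include 96 microRNA genes, whose windows need not be promoters.

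The 300-base stretches below show what such windows look like. In each, the stretch with the most CpGs outside untranslated exons was taken from the RefSeq GRCm38 sequence on the gene's strand, 5′ to 3′, and CpGs are in capitals. Rpl10l, an autosomal copy of a ribosomal protein gene used in the male germline, stands for closed and CpG-dense start sites; its stretch lies in the coding sequence and holds 27 CpGs. Spi1, Mbnl1, Unc119 and Cdkl4 had windows lower in OVA-exposed than in saline mice. Itgax and Icosl had windows with lower values after DSE than with OVA alone.
Rpl10l, chr12:66283998-66284297, minus strand: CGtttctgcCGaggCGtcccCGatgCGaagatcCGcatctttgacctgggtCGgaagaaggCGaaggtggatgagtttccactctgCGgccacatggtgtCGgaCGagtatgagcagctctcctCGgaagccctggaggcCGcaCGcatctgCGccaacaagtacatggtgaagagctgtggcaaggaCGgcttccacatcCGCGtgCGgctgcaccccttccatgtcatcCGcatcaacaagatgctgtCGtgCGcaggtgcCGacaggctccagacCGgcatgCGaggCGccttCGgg
Spi1, chr2:91097075-91097374, plus strand: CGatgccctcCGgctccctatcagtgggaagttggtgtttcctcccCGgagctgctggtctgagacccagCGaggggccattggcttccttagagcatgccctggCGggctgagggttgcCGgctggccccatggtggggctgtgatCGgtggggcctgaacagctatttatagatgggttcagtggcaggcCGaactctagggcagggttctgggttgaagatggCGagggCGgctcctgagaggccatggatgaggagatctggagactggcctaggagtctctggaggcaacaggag
Mbnl1, chr3:60474079-60474378, plus strand: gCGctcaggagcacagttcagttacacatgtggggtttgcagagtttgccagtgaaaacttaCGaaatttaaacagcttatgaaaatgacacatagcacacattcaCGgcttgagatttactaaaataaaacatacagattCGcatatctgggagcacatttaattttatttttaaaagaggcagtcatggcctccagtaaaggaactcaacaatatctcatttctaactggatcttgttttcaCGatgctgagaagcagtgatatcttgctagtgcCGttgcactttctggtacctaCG
Unc119, chr11:78346025-78346324, plus strand: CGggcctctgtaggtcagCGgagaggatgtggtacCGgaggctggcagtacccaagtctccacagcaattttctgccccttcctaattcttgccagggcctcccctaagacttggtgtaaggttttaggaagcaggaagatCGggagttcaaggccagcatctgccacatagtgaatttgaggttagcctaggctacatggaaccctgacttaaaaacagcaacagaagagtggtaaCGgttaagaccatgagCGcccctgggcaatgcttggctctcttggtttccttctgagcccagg
Cdkl4, chr17:80563904-80564203, minus strand: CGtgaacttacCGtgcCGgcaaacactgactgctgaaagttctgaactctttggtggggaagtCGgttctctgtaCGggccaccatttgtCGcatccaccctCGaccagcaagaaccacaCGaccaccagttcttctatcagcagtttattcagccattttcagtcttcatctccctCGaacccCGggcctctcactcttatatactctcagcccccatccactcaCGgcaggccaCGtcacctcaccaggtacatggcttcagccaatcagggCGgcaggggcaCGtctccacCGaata
Itgax, chr7:128129682-128129981, plus strand: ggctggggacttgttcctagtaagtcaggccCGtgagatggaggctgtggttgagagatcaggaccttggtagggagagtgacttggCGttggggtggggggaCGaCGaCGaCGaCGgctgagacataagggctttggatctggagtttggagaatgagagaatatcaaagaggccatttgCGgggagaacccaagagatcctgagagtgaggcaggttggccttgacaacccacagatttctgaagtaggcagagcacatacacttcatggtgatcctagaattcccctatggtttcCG
Icosl, chr10:78070027-78070326, plus strand: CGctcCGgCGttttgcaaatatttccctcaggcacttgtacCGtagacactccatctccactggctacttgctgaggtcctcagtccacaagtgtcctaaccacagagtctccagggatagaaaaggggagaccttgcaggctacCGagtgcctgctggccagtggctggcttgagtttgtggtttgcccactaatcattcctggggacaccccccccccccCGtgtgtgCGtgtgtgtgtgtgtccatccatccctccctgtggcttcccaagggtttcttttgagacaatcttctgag

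These stretches hold 10 CpGs at Spi1, 7 at Mbnl1, 6 at Unc119, 15 at Cdkl4, 9 at Itgax and 7 at Icosl. All 6 hold fewer than the 27 of the germline example. Masked repeats covered 38.8% of the Icosl window and 2.00% of the Spi1 window. The CpG numbers describe the sequence, and how many of these CpGs were captured was not counted.

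Over all windows a mouse had 306656737 to 410836272 calls, and over the members 3785173 to 5253201. The median member had 324 to 398 calls in saline mice, 335 to 380 in OVA-induced mice and 383 to 486 in DSE-treated mice. Every DSE-treated mouse was thus deeper there than every OVA-induced mouse. Whether this enters DSE vs. OVA was not tested. The shallowest mouse of the median member had 287 calls, at which the 95% Wilson interval of 84.0% runs from 79.3% to 87.8%. At the minimum of 20 calls, 85.0% has an interval of 64.0% to 94.8%. The intervals hold for counting error alone: 1 molecule can give several calls, and most calls are counted in 2 windows. No pair of mice of a group held the same calls: the chi-square per member averaged 2.24 to 2.88 where counting independent calls gives 1.

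The middle of the distribution hardly differed between groups. The median member was methylated at 84.4%, 84.4% and 84.1% in the saline mice, at 84.5%, 84.8% and 85.2% in the OVA-induced mice, and at 83.4%, 84.7%, 84.2% and 84.5% in the DSE-treated mice. The groups overlapped, and DSE mouse 1 was the lowest of all. Means over mice were 84.34% ± 0.167 (SD, n = 3), 84.84% ± 0.338 (n = 3) and 84.20% ± 0.578 (n = 4). What differed was the lower tail. The share of members under 75% was 5.61% to 6.93% in single saline mice, which set the limit, 10.1% to 11.0% in OVA-induced mice and 10.0% to 13.7% in DSE-treated mice.

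**Figure D1:**
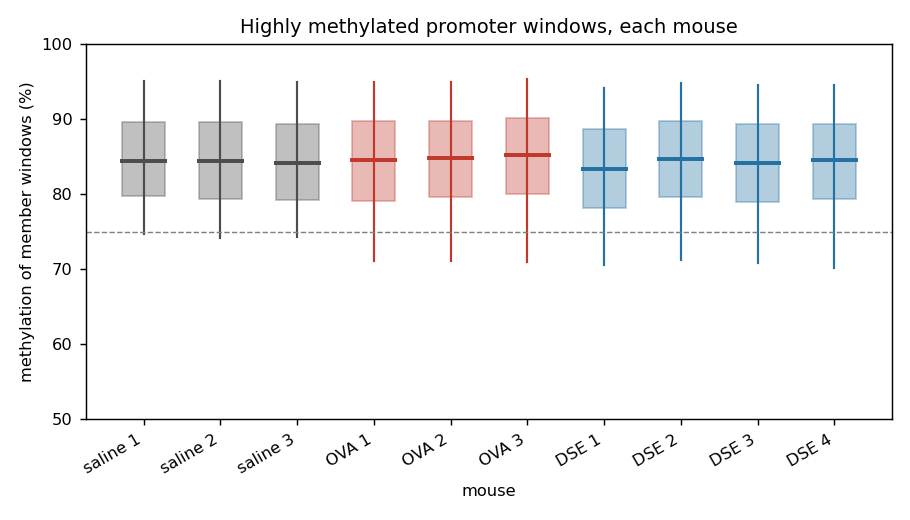
Methylation of the 6635 member windows in each mouse (%, y axis from 50 to 100), with the median as a thick line, the 25th to 75th percentile as a box and the 5th to 95th percentile as a thin line. Medians lie between 83.4% and 85.2% in every mouse, while the 5th percentile is 74.2% to 74.7% in saline mice and 70.2% to 71.2% in OVA-exposed mice. The dashed line is the limit of 75% that chose the members in saline, which also holds up the saline 5th percentile.

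Because saline methylation chose the members, comparisons with saline are descriptions, and values chosen to be high tend to be lower when they are measured again. A fair comparison needs a saline mouse that did not take part in the choice. The members were therefore chosen on pairs of saline mice, and the saline mouse left out was compared with the pair beside each exposed mouse. The left-out saline mouse was at least 10 percentage points below its pair in 2.60%, 2.81% and 2.76% of the windows. The OVA-induced mice were that far below in 4.60% to 6.30%, and the DSE-treated mice in 4.82% to 7.02%. Every exposed mouse thus had more such windows than the left-out saline mouse, in all 3 choices. At least 10 points above the pair were 0.834% to 1.43% of the windows in the left-out saline mice, 1.34% to 2.22% in the OVA group and 0.698% to 1.28% in the DSE group. On this upper side every OVA-induced mouse also had more such windows than the left-out saline mouse in all 3 choices. The comparison was made in promoter windows only.

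**Figure D2:**
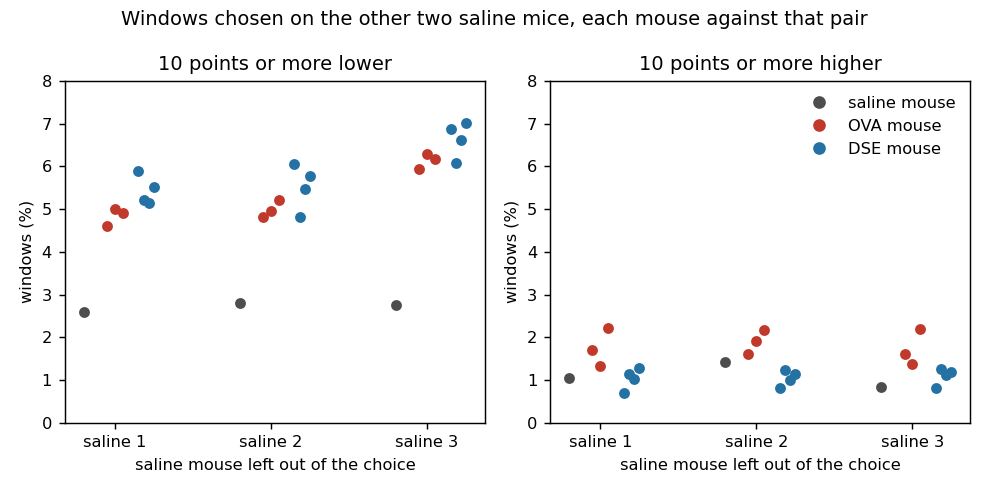
Share of windows (%, y axis) that lie at least 10 percentage points below (left) or above (right) the pooled value of 2 saline mice, for windows chosen on that pair, with a point per mouse and the left-out saline mouse on the x axis. The left-out saline mice lie at 2.60% to 2.81% on the left and all OVA-exposed mice above them, at 4.60% to 7.02%; on the right the OVA-induced mice lie at 1.34% to 2.22%, each above the left-out saline mouse of the same choice, and the DSE-treated mice at 0.698% to 1.28%.

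In OVA vs. saline, 194 members (2.92%) were at least 10 percentage points lower with no overlap of mice, and 23 (0.347%) were higher by the same rule. Over all 421759 windows with 20 calls, these shares were 2.53% and 4.66%. In the 113920 windows outside promoters that also reached 75% in saline, they were 2.45% and 0.302%, near those of the members. The 194 windows form 172 regions near 177 genes. The 1400 members at 90% or more in saline had no room to be 10 points higher, so the split between lower and higher cannot be read against that of all windows. Compared through the left-out saline mouse alone, with members chosen on the other pair, 245 to 275 windows were lower and 158 to 173 higher. There the OVA-induced mice had to pass a single saline mouse instead of all of them. That rule is easier to meet, so these counts cannot be set against 194 and 23. No share of all windows is given for it.

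In DSE vs. saline, 204 members (3.07%) were lower and 5 (0.0754%) higher, against 2.78% and 4.35% of all windows. All 7 OVA-exposed mice lay below all saline mice, by at least 10 points in the pooled calls, in 160 members (2.41%), and above them in 1 (0.0151%), against 2.07% and 3.19% of all windows. Outside promoters, windows that also reached 75% in saline had 2.98% lower and 0.114% higher in DSE vs. saline. There the 7 exposed mice were all below saline in 2.18% and all above in 0.0342%. Both comparisons use the same saline mice, so their lists are not independent. At the 194 windows lower in OVA, the median window was at 80.2% in saline, 66.2% in the OVA group and 67.7% in the DSE group.

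Members at start sites with only members were less often lower than the other members. Of 3038 members whose start sites also had a window under 20%, 100 (3.29%) were lower in OVA, as were 65 of 1676 (3.88%) beside a window of 20% to under 75% and 29 of 1921 (1.51%) whose start sites had only members. These classes also differed in saline level, with medians of 83.4%, 82.7% and 86.5% in the same order. By saline level the share lower in OVA was 5.13% at 75% to under 80%, 2.39% at 80% to under 90% and 1.29% at 90% or more. The classes were not compared at equal saline level. By sequence the share was 4.16% under 10 CpGs, 2.65% at 10 to 19 and 1.83% at 20 or more. These shares come from the contrast that chose the members and were not tested.

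Single windows show the size of these differences. In an intronic window downstream of a Mbnl1 start site, chr3:60473501-60474500, the 3 saline mice had 79.5%, 78.9% and 78.1%. The OVA-induced mice had 59.6%, 49.8% and 59.2%, and the DSE-treated mice 50.6% to 57.9%. Mbnl1, a muscleblind-like regulator of RNA splicing, thus showed 78.8% ± 0.699 (SD, n = 3) in saline, against 56.2% ± 5.59 with OVA (n = 3) and 53.9% ± 3.62 with OVA and DSE (n = 4). Each mouse had 488 to 1406 calls there. The windows centred 170 and 670 bp downstream of that start had 23.6% to 30.2% and 14.6% to 18.6% in saline.

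Unc119, a chaperone that carries lipid-modified signalling proteins, had its lower window on the upstream side. At chr11:78346001-78347000, which covers a start site and exon 1, saline mice had 76.1%, 78.5% and 80.1%, OVA-induced mice 61.0%, 53.4% and 55.7%, and DSE-treated mice 61.2%, 54.0%, 56.9% and 54.4%. The highest exposed mouse lay 14.9 points below the lowest saline mouse. The member 500 bp downstream showed no such difference, with 84.7% to 89.5% in saline and 84.1% to 91.4% in exposed mice.

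Rubcnl, which acts in autophagy, had an unmethylated start site and a high shore. At an intronic window whose midpoint lies 1464 bp downstream of the start, chr14:75017001-75018000, saline mice had 81.3%, 82.1% and 76.5%, OVA-induced mice 62.4%, 56.1% and 59.7%, and DSE-treated mice 58.5%, 58.4%, 60.9% and 58.4%. The window over the start had 3.17% to 3.98% in saline and 2.69% to 3.45% in exposed mice. The groups were apart in the shore, while 3 exposed mice lay within the saline range in the start site window.

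Spi1 encodes PU.1, a transcription factor of myeloid and B cells. Its window downstream of a start site, chr2:91097001-91098000, in an intron, had 77.6%, 81.7% and 70.6% in saline mice, 59.6%, 55.0% and 57.6% in the OVA group and 52.3%, 48.4%, 66.7% and 55.4% in the DSE group. All exposed mice were lower, although DSE mouse 3 lay only 3.89 points below the lowest saline mouse. The member centred at -678 bp from the start had 80.5% to 82.9% in saline and 69.6% to 77.2% in exposed mice. The member farthest upstream, centred at -1178 bp, had 87.6% to 88.8% in saline and 83.4% to 88.4% in exposed mice, which overlapped.

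Cdkl4, a kinase gene related to the cyclin-dependent kinases, had the largest difference among members with at least 50 calls in every mouse. In the window upstream of its start, chr17:80564001-80565000, saline mice had 77.1%, 86.5% and 72.4%, OVA-induced mice 54.0%, 38.7% and 36.5%, and DSE-treated mice 52.7%, 56.9%, 59.4% and 48.9%. Pooled calls differed by -35.6 percentage points between OVA and saline and by -24.6 between DSE and saline. The overlapping window on the start site, chr17:80563501-80564500, had -34.9 and -22.6. Below 50 calls, a Trim44 window on as few as 32 calls had an OVA minus saline difference of -52.8 points, with no overlap of these groups, while DSE-treated mice spread from 34.9% to 97.9%. It was picked after its values were seen.

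**Figure D3:**
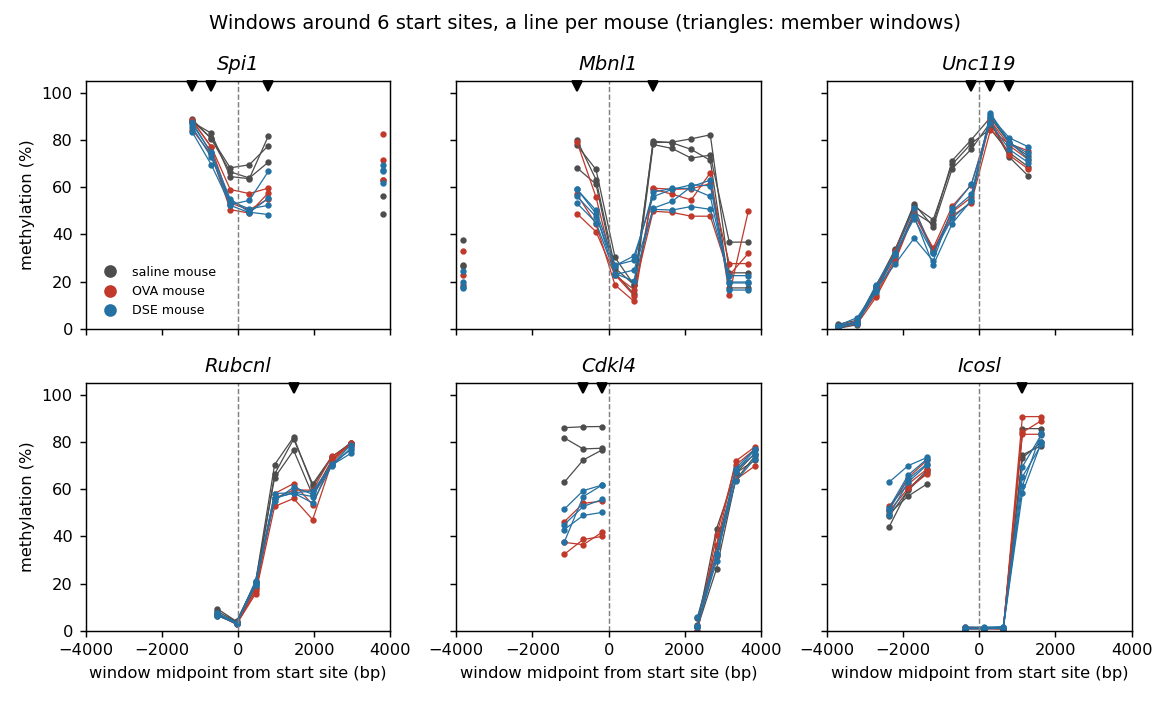
Methylation (%, y axis) of the windows with at least 20 calls by the distance of their midpoint from a start site (bp, x axis, positive downstream) at 6 genes, with a line per mouse broken where windows are missing and triangles over the member windows. At Rubcnl and Icosl the start site is under 4% and the member lies on its downstream shore, at Unc119 exposed mice are lower upstream only, and at Cdkl4 the saline mice stand above all others around the start.

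In further named windows all exposed mice were below saline as well, while OVA-induced and DSE-treated mice overlapped. The deepest of them was at A630001O12Rik, a long non-coding RNA gene, over exons 1 and 2 with 1845 to 2430 calls per mouse: saline mice had 82.9% to 83.9%, OVA-induced mice 62.3% to 69.8% and DSE-treated mice 62.8% to 67.8%. Gm41611, a predicted gene, had 85.4% to 90.9% in saline, 55.0% to 64.4% in the OVA group and 49.7% to 65.6% in the DSE group. Rab29, a small GTPase of the endolysosomal system, had 77.1% to 81.9%, 51.5% to 65.4% and 54.6% to 59.9% in saline, OVA-induced and DSE-treated mice.

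Fgd3 had 69.4% to 78.5% in saline, 49.5% to 57.0% in the OVA group and 51.2% to 67.5% in the DSE group. At Plac8 OVA-induced mice had 43.8% to 67.4%, and the highest DSE-treated mouse, at 75.9%, reached the saline range of 75.6% to 80.8%. Gm15708, Gm19951, 5031439G07Rik, Aifm3 and Slc22a8 complete the 12 windows, with OVA minus saline differences of -20.8 to -24.7 points. In 11 of the 12 every OVA-exposed mouse was below every saline mouse.

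**Figure D4:**
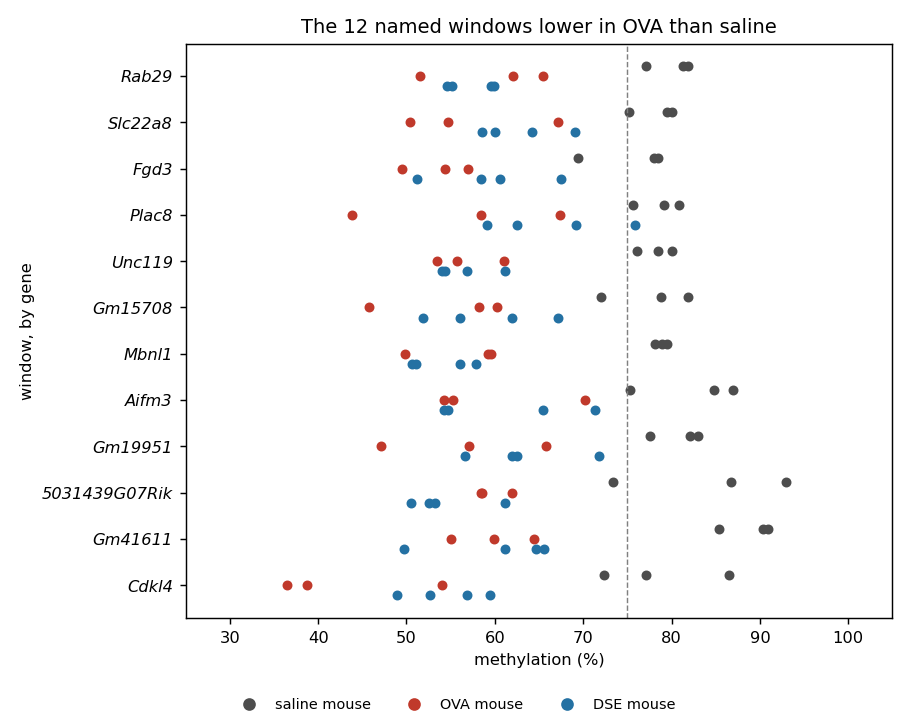
Methylation (%, x axis) of each mouse at the 12 named member windows with the largest negative difference in OVA vs. saline among those with at least 50 calls in every mouse (y axis, by gene), with saline mice above, OVA-induced mice in the middle and DSE-treated mice below in each row and the limit of 75% dashed. OVA-exposed mice lie to the left of saline mice in all rows but Plac8, where a DSE-treated mouse reached 75.9%.

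Genes of blood cells outside the naming rule were picked from the lower windows after their values were seen. At Bin2, an adaptor of leukocytes, saline mice had 79.6%, 81.4% and 73.3%, OVA-induced mice 62.8%, 53.7% and 52.2%, and DSE-treated mice 61.6%, 53.3%, 59.8% and 55.0%. Ptpn7, a phosphatase of blood cells, had 76.7% to 81.5% in saline and 54.2% to 66.7% in exposed mice 1192 bp downstream of its start. Tnfaip8l2, a regulator of innate and adaptive immunity, had 71.3% to 80.7% and 47.8% to 61.3%. Blood cell genes did not all go this way. OVA minus saline was 10.4 points at Itgax, 3.70 at Coro1a, 2.42 at Clec12b and -0.197 at the deepest Zap70 window. Over the Zap70 members it ran from -3.69 to 0.268. It was -5.87 to -8.31 at the Lck members and -6.10 and -7.29 at those of Laptm5, lower but short of 10 points.

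The 5 windows with the highest saline levels among those with at least 200 calls in every mouse stayed high. Rpl10l had 97.9%, 98.7% and 98.1% in saline mice, 96.6% to 98.5% in the OVA group and 97.2% to 98.6% in the DSE group, upstream of its start. Tmem97, a sterol-regulated membrane protein, had 95.4% to 97.6%, 96.4% to 96.5% and 95.9% to 97.9%. Ppp1r14bl and Gm11832 had 94.5% to 97.5% in saline and 91.0% to 97.3% in exposed mice. Tmem40 had 96.0% to 97.2% in saline and up to 98.0% in exposed mice, with OVA-induced mice at 97.5%, 92.3% and 93.6%.

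At the other end, the members just inside the limit were a window of Vrk1, a nuclear kinase, with 72.0% to 78.3% in saline, and one of Plgrkt, a plasminogen receptor, with 72.8% to 76.1%. Just outside lay Apob, the main protein of low-density lipoprotein, with 74.3% to 76.4%, and Gm5476 with 71.5% to 78.5%. Exposed mice had 56.2% to 64.9% at Vrk1, 76.1% to 79.5% at Plgrkt, 68.2% to 75.6% at Apob and 69.1% to 77.1% at Gm5476, so of these 4 windows Vrk1 had every exposed mouse below saline.

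Of the 753 closed genes, 19 (2.52%) had a window lower in OVA than in saline, as did 177 of the 4411 genes with a member, and 11 (1.46%) one in which all exposed mice were below saline. Cd27, a costimulatory receptor of lymphocytes, had 78.4%, 74.8% and 75.3% in saline mice, 61.9%, 61.4% and 58.9% in the OVA group and 70.5%, 66.8%, 68.1% and 64.6% in the DSE group at its window 526 bp downstream of the start. There the DSE-treated mice lay between the other groups without overlap.

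Lat2, an adaptor of myeloid and B cells, had 71.9% to 82.6% in saline and 52.6% to 68.9% in exposed mice over its start site, with 57 to 116 calls. Ccr1, a receptor for inflammatory chemokines, had 85.6% to 89.2% and 73.8% to 80.5%. Taar4, a trace amine receptor of the olfactory epithelium, had 87.4% to 93.4% in saline, 78.3% to 81.2% in the OVA group and 51.9% to 76.4% in the DSE group over its start. Bicral, a subunit of a chromatin remodelling complex, Gm30726, Kalrn, Gm51280, Fabp1, 1600010M07Rik and Ccr3 make up the rest of the 11, all of them lower in all exposed mice in at least 1 window. Ccr1, Gm51280 and Fabp1 had only 1 analysed window each, centred 1192, -1242 and -1378 bp from the start, so their start sites were not measured.

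Gene families were compared by how many of their genes had a member, where 23.8% of all genes with an analysed promoter window did. Germline genes, which are used in sperm and egg precursors, had one in 31 of 38 (81.6%), with a median of 31 CpGs, and 19 were closed, among them Ddx4, Sycp1, Piwil2, Spo11 and Tdrd9. Their 95 member windows had medians of 87.2% in saline, 87.9% in the OVA group and 88.4% in the DSE group, and 0 of them were lower in OVA or called in DSE vs. OVA. As 2.92% of all members were lower in OVA and 0.784% and 0.286% were called lower and higher in DSE vs. OVA, a count of 0 in a list of this size or smaller is near those shares.

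Among receptors of the nose, 44 of 81 olfactory receptor genes (54.3%) had a member and 35 were closed, with medians of 86.7%, 87.4% and 86.8% over 88 windows. None of these was lower in OVA, while DSE vs. OVA called 1 higher (Olfr452) and 1 lower (Olfr1404). Of 6 vomeronasal receptor genes 5 had a member, of 6 defensin genes 4, and of 24 keratin and cornified envelope genes 11. No window of these 3 families was lower in OVA or called.

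Liver plasma protein genes had a member in 18 of 34 (52.9%), of which 3 were closed. Of their 43 windows, those of Ambp and Apoa2 were lower in OVA, and 1 at Itih2 was called lower in DSE vs. OVA. MicroRNA genes had one in 218 of 509 (42.8%), small nucleolar RNA genes in 35 of 91 (38.5%) and zinc finger genes named Zfp in 85 of 372 (22.8%). For the microRNA and small nucleolar RNA genes these shares need not describe promoters, because the 5′ end of the annotated RNA served as start site. Of the 373 microRNA windows 5 were lower in OVA, at Mir21a, Mir671, Mir700 and Mir7012, as was 1 window each of the small nucleolar RNA and zinc finger genes, at Snord19 and Zfp750. Mir21a, a microRNA that is abundant in inflamed tissue, had 77.5% to 82.8% in saline and 61.4% to 76.0% in exposed mice in its deeper window.

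Immune gene families differed in how many of their genes had a member. Chemokines and their receptors had one in 6 of 25 genes (24%), and of 7 windows 2 were lower in OVA (Ccr1 and Ccr3) and 3 in all exposed mice. Ccr3 is the eotaxin receptor of eosinophils. Its window lower in OVA had 77.3% to 84.8% in saline and 64.6% to 76.9% in the OVA group. The DSE group, at 70.2% to 84.0%, overlapped with saline there. The overlapping Ccr3 window centred at -470 bp, lower in all exposed mice, had 77.2% to 83.3% in saline and 61.6% to 76.9% in exposed mice. Both had as few as 28 calls in a mouse. Interleukins and their receptors had one in 14 of 47 genes (29.8%), and 3 of 24 windows were lower in OVA, at Il12rb1, Il1r1 and Il1rn. At Il1rn, the antagonist of the interleukin-1 receptor, saline mice had 85.0%, 95.9% and 89.6% and exposed mice 67.9% to 83.0%.

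Eosinophil ribonucleases had a member in 7 of 11 genes (63.6%), and 0 of 16 windows were lower by the rule. Ear1 had 76.6% to 81.8% in saline, 73.8% to 78.5% in the OVA group and 74.2% to 78.7% in the DSE group at its deepest window, and Siglecf 72.2% to 81.4%, 72.6% to 79.1% and 68.4% to 73.5%. Both overlapped between saline and OVA-induced mice. At the Ear1 member over the start site, saline mice had 77.2% to 81.5%, OVA-induced mice 69.0% to 78.3% and DSE-treated mice 65.5% to 77.1%. There every DSE-treated mouse was below saline, while the OVA-induced mice overlapped with saline. Il4, the signature cytokine of T helper 2 cells, had 71.1% to 77.1%, 72.5% to 76.4% and 72.9% to 77.6% over its start site.

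The remaining lists had at most 2 windows lower in OVA each. Testis and sperm genes had a member in 14 of 62 genes with 1 window lower in OVA (Zpbp2), taste and trace amine receptors in 3 of 6 with 2 (both Taar4), kallikreins in 3 of 14 with 1 higher and C-type lectins in 7 of 19 (36.8%), where Clec10a was lower in all exposed mice. Cytochrome P450 genes of families 2, 3 and 4 had one in 14 of 36, muscle contraction genes in 9 of 21, pancreatic genes in 4 of 11, placental genes in 4 of 6, serpins in 2 of 17 and the CD300, Siglec and paired receptor genes in 3 of 15. NK cell lectin-like receptors had one in 1 of 4, granzymes and mast cell proteases in 1 of 3, caseins in 1 of 2, lung secretory genes in 1 of 6 and the membrane-spanning 4A family in 1 of 6. In these last 11 families 0 windows were lower in OVA.

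Promoters of cell type markers differed in the same comparison. Over 40 promoter windows of 7 of the 8 pan-leukocyte markers, members or not, mean methylation per mouse was 51.7% to 55.0% in saline, 41.7% to 45.7% in the OVA group and 41.5% to 45.4% in the DSE group. The 7 eosinophil markers analysed had 55.7% to 59.4%, 51.8% to 55.9% and 49.9% to 54.3%, and the 2 macrophage markers 63.4% to 63.8%, 59.6% to 62.2% and 59.3% to 62.2%. The macrophage markers were Cd68 and Ear1, and Ear1 is also among the eosinophil markers. Methylation was higher at the 7 mesenchymal markers, with 15.4% to 16.1%, 18.2% to 19.5% and 18.7% to 20.8%, and at the 4 endothelial markers, with 20.4% to 23.1%, 24.6% to 27.5% and 23.4% to 25.2%.

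T cell markers had 54.1% to 56.5% in saline, 53.0% to 54.0% in the OVA group and 52.8% to 56.5% in the DSE group, and the 5 B cell markers overlapped in all groups at 33.0% to 35.9%. No neutrophil or NK cell marker had an analysed window. The 3 mast cell markers analysed had 23.7% to 26.6% in saline, 22.2% to 23.1% in the OVA group and 20.4% to 23.9% in the DSE group. Airway and alveolar epithelial markers overlapped between all groups, at 24.3% to 29.0% and 34.4% to 39.3% over all mice. The part of leukocyte numbers in the lower members was not tested.

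Among the member windows of these markers, Laptm5, a lysosomal protein of blood cells, had 84.7% to 88.8% in saline and 79.6% to 85.4% in exposed mice, and Lck, the T cell kinase, 72.7% to 79.0% and 66.1% to 74.6% over its start. Zap70, a T cell kinase, had 6 members, of which the deepest was at 89.4% to 91.5% in saline and 89.9% to 92.4% in exposed mice. At another Zap70 member, chr1:36765501-36766500, saline mice had 90.8% to 94.6% and exposed mice 86.4% to 90.5%, without overlap. Coro1a, Pax5, Cd68, Ager and Tagln overlapped between saline and exposed mice.

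A sequence feature of the lower windows was searched after the data were seen. The 8 bases GAGGAAGT, on either strand a common core of PU.1 binding sites, occurred in 423 members (6.38%) and in 6.54% of all analysed promoter windows. They occurred in 22 of the 194 windows lower in OVA (11.3%), in 23 of the 160 with every exposed mouse below saline (14.4%) and in 3 of the 52 lower in DSE vs. OVA (5.77%). Of the 19 higher in DSE vs. OVA 3 held them (15.8%), as did 0 of the 23 higher in OVA. The Unc119 window holds 1 match and the Spi1 and Mbnl1 windows 0. A match is only a description of the sequence.

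DSE vs. OVA is the comparison that the choice of members did not use, and it was tested. A logistic model with a likelihood ratio test was fitted to all 421759 windows, and calls needed 10 percentage points or more besides a p under 0.01 after Benjamini-Hochberg adjustment. Of the members, 52 (0.784%) were lower and 19 (0.286%) higher in DSE-treated mice, against 0.699% and 0.888% of all windows. The share of lower calls is thus near that of all windows. In the 113920 windows outside promoters that also reached 75% in saline, 0.557% were lower and 0.188% higher. In this test each call counts as independent, so variation among mice plays no part.

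With the further condition that mice do not overlap, 43 members (0.648%) were lower and 8 (0.121%) higher, against 0.512% and 0.708% of all windows. With limma, which uses the spread between mice, 5 members (0.0754%) were lower and 0 higher at an adjusted p under 0.05, against 0.0213% and 0.0567% of all windows. Windows outside promoters that also reached 75% in saline had 0.0465% and 0.00790% by limma, so lower calls outnumbered higher ones there too. An unadjusted limma p under 0.05 was found in 585 members (8.82%), against 9.75% of all windows. At a limma adjusted p of 0.01, and with an F test with a scale factor, 0 members were called; the F test had an unadjusted p under 0.05 in 395 members (5.95%) and in 7.35% of all windows. The median member differed by -0.515 points in DSE vs. OVA, the median window outside promoters with the same saline level by -0.584 and the median of all windows by -0.0318.

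The called windows were shallow. Their shallowest mouse had a median of 53.0 calls at the 52 lower and 61.0 at the 19 higher windows, against 287 for all members, and with at least 50 calls in every mouse 28 lower and 10 higher were called. Of the lower windows 28 stood beside a window under 20%, 10 beside one of 20% to under 75% and 14 at start sites with only members.

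The 5 windows that limma called are at 4 genes. Itgax encodes CD11c, an integrin of dendritic cells and alveolar macrophages. Its window over the start site, chr7:128129001-128130000, had 92.3%, 91.0% and 93.1% in the OVA group and 76.2%, 77.5%, 82.5% and 82.4% in the DSE group, while saline mice spread from 72.2% to 90.3%. The difference was -12.5 points (limma adjusted p = 0.0451), and the next window holds exactly the same calls, so it is no second result.

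Gm2245, a predicted gene, was the deepest of them, with 459 to 811 calls per mouse. It had 85.1%, 86.7% and 83.0% in saline, 88.3%, 88.3% and 88.4% in the OVA group and 76.0%, 75.8%, 69.6% and 77.9% in the DSE group (limma adjusted p = 0.0485). The DSE-treated mice were below both other groups. Pitpnc1, a phosphatidylinositol transfer protein, had 94.7% to 98.1% in the OVA group and 82.5% to 85.4% in the DSE group (limma adjusted p = 0.0405), in a window of 3 CpGs.

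Zfp988, a zinc finger gene, had 90.5%, 86.8% and 85.3% in the OVA group and 65.6%, 72.7%, 63.2% and 69.4% in the DSE group at an intronic window (limma adjusted p = 0.0436). Its window over the start site, with at least 10133 calls in every mouse, had 82.7% to 83.7% in the OVA group and 80.7% to 82.4% in the DSE group. Zinc finger genes of this kind can have near-identical copies, so its values are uncertain.

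Icosl encodes the ligand of the T cell costimulator ICOS. At chr10:78070001-78071000, in an intron downstream of an unmethylated start site, OVA-induced mice had 83.3%, 90.8% and 84.1% and DSE-treated mice 61.4%, 65.3%, 69.6% and 58.4%. Saline mice had 73.3%, 85.7% and 74.6%. The difference of -22.5 points passed the likelihood ratio test (adjusted p = 2.53e-12) and missed the limma threshold (adjusted p = 0.0598). In the next window downstream the mice overlapped, with OVA-induced mice again at 83.3% to 90.8%.

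The other named lower windows did not pass limma either, with limma adjusted p of 0.0510 to 0.382. The largest difference was -31.3 points at Arhgap19, where OVA-induced mice had 92.7%, 80.9% and 63.2% and DSE-treated mice 31.2%, 47.9%, 54.2% and 38.2%, on 34 to 73 calls. The window shared by Mipol1 and Prps1l3 had 79.0% to 91.1% against 50.9% to 62.7%, and that of Cep76, a centrosomal protein gene, 83.4% to 84.9% against 53.5% to 70.1%.

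Kcnj9, a potassium channel gene, had 69.7% to 75.8% in the OVA group and at most 57.1% in the DSE group, and Uimc1, a DNA repair gene, 81.3% to 91.3% and 59.8% to 74.0%. Riox1 differed by -22.0 points, with at most 67.9% in DSE-treated mice. The microRNA genes Mir210 and Mir6388 had 86.5% to 91.2% against at most 85.7%, and 82.7% to 91.9% against 61.3% to 71.6%. Mir210 rests on 28 to 48 calls, and its DSE-treated mice spread over 17.6 points (SD, n = 4). Calls of the likelihood ratio test were lost when 1 mouse was left out at Riox1 (-16.0 points without OVA mouse 3, -15.9 without DSE mouse 2) and Mir210 (-17.3 without DSE mouse 1, -16.5 without DSE mouse 4). Kcnj9 was not called without OVA mouse 1 or 2 or DSE mouse 2 or 3, at -18.8 to -19.4 points.

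Of the 8 windows higher in DSE-treated mice, that of Zfyve26, a lipid-binding protein of the endolysosomal system, was the deepest, with 124 to 401 calls. It had 64.6%, 67.3% and 64.5% in the OVA group and 87.0%, 80.5%, 87.0% and 82.6% in the DSE group, a difference of 18.8 points (limma adjusted p = 0.0510). Saline mice had 88.1%, 72.0% and 72.4%. The largest difference, 26.4 points, was at Bfar, an apoptosis regulator, where OVA-induced mice had 56.2%, 32.5% and 68.8% and DSE-treated mice 71.4% to 87.8%. The Bfar value rests on 1 mouse: without OVA mouse 2 it was 14.9 points and not called, below the 19.8 points of Zfyve26.

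Agfg1 had 76.9% to 83.5% in the OVA group and 90.5% to 96.0% in the DSE group, above the saline range of 85.4% to 86.7%. Pou2f1, which encodes the transcription factor Oct-1, was 11.3 points higher, with 86.4% to 93.2% in DSE-treated mice. Sec16b, Mir7012, Olfr452 and Zfp940 had differences of 12.7 to 17.3 points, with limma adjusted p of 0.0995 to 0.286. Zfp940 was at 8.89 points without OVA mouse 1 and Pou2f1 at 9.63, under the 10 points a call needs. Sec16b, Mir7012 and Olfr452 each lost the call on leaving out 5 or 6 of the 7 mice, 1 at a time, at 10.7 to 15.9 points, while Zfyve26 and Agfg1 kept theirs without any 1 mouse.

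**Figure D5:**
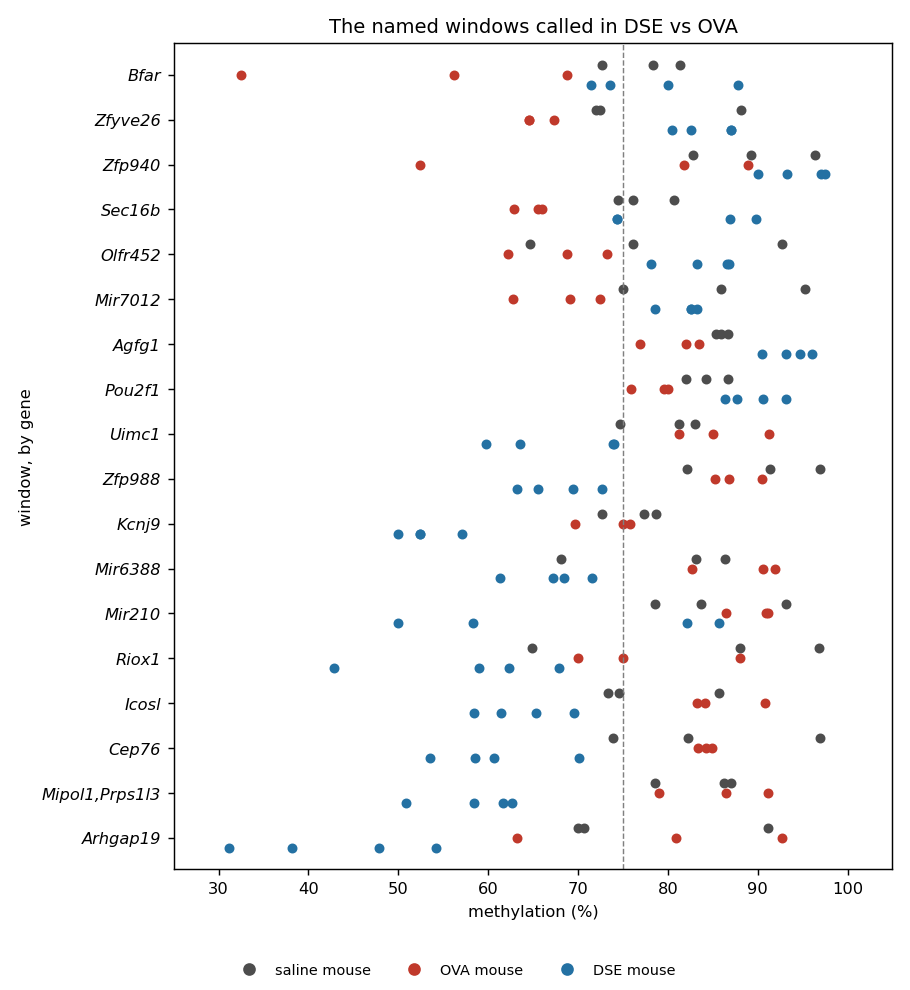
Methylation (%, x axis) of each mouse at the named member windows called in DSE vs. OVA without overlap of mice (y axis, by gene), the 8 higher windows at the top and 10 lower windows at the bottom, with saline mice above, OVA-induced mice in the middle and DSE-treated mice below in each row. The largest differences are 26.4 points at Bfar and -31.3 points at Arhgap19, and saline mice lie on either side of the 75% limit (dashed) in several rows.

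In 20 members the OVA-induced mice lay wholly outside the saline mice, and DSE vs. OVA was called in the opposite direction without overlap. Of these members 6 were lower in OVA (0.0904% of members) and 14 higher (0.211%), against 0.196% and 0.208% of all windows. Windows that share all their calls, a pair each at Itgax and Gm5092, leave 18 distinct sets of calls, 12 of them higher. Both comparisons use the same OVA-induced mice, so a chance value in these mice enters both with opposite signs. In 4 of the 20, at 3 distinct sets of calls, every DSE-treated mouse was within the saline range: both windows of Itgax, Zfyve26 and Mir7012. Mrps14, a mitochondrial ribosomal protein and also among the 20, had 78.6% to 82.9% in saline, 86.2% to 93.9% in the OVA group and 71.9% to 77.2% in the DSE group.

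Msantd2 had 80.7% to 82.2% in saline, 85.3% to 94.0% in the OVA group and 66.2% to 78.3% in the DSE group, so the treated mice were below saline. Mars1, a methionyl-tRNA synthetase, had 73.3% to 89.3%, 90.2% to 92.1% and 69.9% to 85.9%. Its DSE minus OVA difference lost the call without OVA mouse 2 (-10.8 points) and without DSE mouse 3 (-6.18). Gm5092 and Slc22a26 also had every OVA-induced mouse above saline, with DSE minus saline at -4.73 and -4.94 points, on as few as 29 and 25 calls. Gm5092 lost its call without OVA mouse 2 (-13.9 points) or DSE mouse 1 (-9.55), and Slc22a26 without any 1 OVA-induced mouse or DSE mouse 1, at -12.7 to -15.6 points. Windows higher in OVA than in saline were rare and included Mcmdc2 and Klhl35, with differences of 11.1 and 11.7 points.

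Of the 12 windows named for the largest negative difference in OVA vs. saline, 0 were called in DSE vs. OVA with mice that do not overlap. Without that condition Cdkl4 was called, with DSE minus OVA at 11.0 points and at 12.3 in its overlapping window, the second with an adjusted p of 5.65e-05 in the likelihood ratio test and 0.449 in limma, and the mice overlapped. It was 9.19 points at Plac8 (likelihood ratio test adjusted p = 0.0194, limma adjusted p = 0.669), 6.36 at Gm19951, 5.55 at Slc22a8, 5.31 at Fgd3, 4.67 at Gm15708, 1.08 at Aifm3 and 0.0329 at Unc119. At the remaining 4 it was -0.161 at Gm41611, -1.73 at Mbnl1, -2.49 at Rab29 and -5.51 at 5031439G07Rik. Rubcnl and A630001O12Rik, named for the widest gap between saline and exposed mice, had -0.716 and -1.93. A p that misses the threshold does not show that the groups had equal methylation.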

How the data were processed

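Lung DNA of 10 mice was captured with SureSelect Methyl-seq, treated with bisulfite and sequenced in paired reads of 101 bases. The authors deposited, for each window of 1000 bp at steps of 500 bp, counts of methylated and unmethylated CpG calls per mouse. The submitters' processing notes name cutadapt 1.10, Bismark 0.19.0, methylKit 1.0.0 and the build mm10, which is GRCm38. No column of another sample was used. RNA-seq data were not analysed here.

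The percentage of methylated calls was computed per mouse from these counts in Python 3.11.15 with numpy 2.4.6, pandas 2.3.3 and scipy 1.17.1, and figures were drawn with matplotlib 3.10.9. Windows with under 20 calls in any mouse were left out. DSE vs. OVA was tested by a logistic likelihood ratio test without overdispersion, calls needing 10 percentage points and a p under 0.01 after Benjamini-Hochberg adjustment, and with limma 3.58.1 in R 4.3.3 on M-values, the log2 ratio of methylated over unmethylated calls after adding 1 to each. Limma tests the group difference against the spread between these mice, moderated over all windows, which the likelihood ratio test leaves out. Scripts were tested on simulated data. An exact test of 3 against 4 mice cannot go below 0.0571 for a single window.

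The members and gene lists were chosen with earlier results of these data known. Named windows were those with the largest differences in each comparison (with at least 50 calls in every mouse for those with saline), the widest gap between saline and exposed mice, the deepest of each gene list, the highest, those nearest the limit, those of cell type markers and those that differed in opposite directions. Other test, depth, threshold, window and scaling choices were tried, as was leaving out each mouse. Mice with the same number correlated at 0.078 or less and were not treated as pairs.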

Additional observations from a re-analysis of the deposited data

Results flagged for a closer look

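In 8 of 123 measures of the 4 DSE-treated mice, 1 mouse stood apart from the other 3: the gap to its nearest neighbour, as a share of the group's range, was above Dixon's critical value at the 95% level. Chance gives about 1 in 20. The share was 0.853 at Mir7012, where the lowest mouse had 78.6% and the others 82.6% to 83.3%. It was 0.874 at Pax5, where the highest mouse had 85.4% and the others 79.0% to 79.8%, and 0.942 at Clec12b, with 79.6% against 78.1% to 78.2%. Rubcnl gave 0.951, with 60.9% against 58.4% to 58.5%. A single low mouse gave 0.839 at Tnni3 (80.3% against 81.6% to 81.8%) and 0.844 at Taar1 (83.1% against 85.9% to 86.4%). The widest gaps were at Mars1, with 0.852 (69.9% against 83.5% to 85.9%), and at Cd300c, with 0.919 (70.6% against 79.2% to 79.9%).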

How the results depend on the processing

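No tested difference or count of members changed its direction, while several counts depended on the choices made. The 6635 members became 3545 within 500 bp of a start site, 1606 where the window contains one and 3296 in windows that do not overlap. In DSE vs. OVA the 19 higher and 52 lower members became 0 and 0 with the F test and with limma at 0.01, 0 and 5 with limma at 0.05, 10 and 28 with 50 calls in every mouse, 2 and 8 at 20 percentage points, and 7 and 23 in windows that do not overlap; 8 were higher where mice must not overlap. In OVA vs. saline the 194 lower members became 22 at 20 points and 90 in windows that do not overlap, and the 23 higher ones 13 with 50 calls, 0 at 20 points, 12 in windows that do not overlap and 169, 173 and 158 through a left-out saline mouse. Through a left-out mouse, a single saline mouse had to be passed instead of all, which is easier to meet. In DSE vs. saline the 204 lower members became 34 at 20 points, and the 5 higher ones 2 with 50 calls and 0 at 20 points. With no minimum difference, all exposed mice were below saline in 405 members and above in 185, and with 50 calls above in 0. The median saline level of 84.34% was 84.17% in pooled calls and 84.08% with 50 calls. The causes of these changes were not tested.

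Leaving out 1 mouse at a time gave 6588 to 6713 members. DSE vs. OVA then had 16 to 22 higher and 37 to 57 lower, OVA vs. saline 27 to 51 higher and 199 to 249 lower, and DSE vs. saline 5 to 21 higher and 205 to 251 lower. All exposed mice were above saline in 1 to 17 and below in 148 to 194. The count of members higher in OVA was 51 without saline mouse 2, 41 without saline mouse 3, 47 without OVA mouse 1 and 42 without OVA mouse 2. Median levels were 84.29% to 84.43% in saline, 84.66% to 85.00% in OVA-induced and 84.02% to 84.46% in DSE-treated mice, where 84.46% without DSE mouse 1 lies above the saline level and the value with all mice below it.

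With the replicate number as a block, mice 1 to 3 gave 18 higher and 55 lower members in DSE vs. OVA, against 18 and 57 for the same mice without it, a fit chosen after seeing the data. The mice share only a number, so the pairing was not used. Shallow windows limit the precision, with 20 calls as the minimum.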
